A study of Mus musculus with 4 samples.

Results

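The 7 genes described here encode the Argonaute family as the array design covers it: the PIWI proteins Piwil1, Piwil2 and Piwil4 and the 4 Argonautes Ago1, Ago2, Ago3 and Ago4, which the array files list under their older names Eif2c1 to Eif2c4. They were found by the gene name of each probe or by the current symbol of its accession. That gave 20 probes, 4 for PIWI genes and 16 for Argonautes, of 41174 different probes on each array, and the 7 genes stood among 17538 genes or other features that could be tested.

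Proteins of this family hold a small RNA that leads them to matching transcripts. PIWI proteins are made mainly in the germ line, carry piRNAs, and are best known for silencing transposons, by cutting their transcripts in the cytoplasm and, for Piwil4 in foetal male germ cells, by directing DNA methylation in the nucleus. Argonautes are made in nearly all cells, carry miRNAs that Dicer1 has cut, and lower the stability and translation of target mRNAs, with Ago2 the member that cuts well-paired targets in mammals.

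Total RNA came from mouse germline stem cells, which are spermatogonial stem cells of the testis kept in culture, on 4 Agilent 1-colour arrays. All cells of both groups carried the same pair of alleles, spelled Roa-CreERT2 and CAG-CAT-3FlagNanos2-pA in the labels: a recombinase that 4-hydroxytamoxifen activates, and a construct that makes tagged Nanos2 once recombined. The control group took DMSO (n = 2 arrays) and the other group 4-hydroxytamoxifen (n = 2 arrays), each for 48 h, and the comparison asks for the transcripts that respond to switching on Nanos2, a protein of male germ cells that binds RNA. No group took the compound without the construct, so the effects of Nanos2, of the compound and of the recombinase cannot be told apart. The cells grew on mitomycin-C-treated fibroblasts of C57Bl6 embryos, and the protocol removed these feeders before RNA was taken. The feeder embryos were of day 13.5, and the medium of both groups held GDNF (20 ng/ml), EGF (20 ng/ml) and FGF2 (10 ng/ml). Nothing in the labels says that the arrays of a group stand for separate cultures. The p-values therefore cover only how far these particular samples spread, and that spread may be technical.

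Each value is given first as the processed signal, the scanner's background-corrected brightness, in the order DMSO replicates 1 and 2, then 4-hydroxytamoxifen replicates 1 and 2. Differences are log2 values, 4-hydroxytamoxifen minus DMSO, after each array was centred on its 75th percentile, and errors are limma standard errors. An adjusted p under 0.05 after Benjamini-Hochberg over all features counted as a call. Signals of different probes depend on the probe as well as on the RNA, so only changes between groups are compared across probes, never their levels.

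Across the arrays, 62.1% to 65.9% of spots were well above background, the flag by which the scanner software marks a measurable spot, and saturated spots numbered 0. The dimmest spots so marked read 15.01 to 19.54. Nanos2 read 352.8 and 351.7 with DMSO and 903.8 and 1070 with 4-hydroxytamoxifen, a rise of 2.94-fold (1.56 ± 0.10, limma adjusted p = 0.000843), the direction its labels give. Whether its probe reads the construct's own transcript was not tested. Calls were common: 69.5% of all genes tested passed, 40.5% as higher and 29% as lower, and the median difference of all genes was 0.12. Of the calls 58.3% were higher, but 46.7% were when each array was centred on its median and 50.2% when it was centred on the spike-in probes. These scalings moved the median of all genes to -0.06 and -0.04.

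Among the 7 genes, 4 rose (Piwil2, Piwil4, Ago1 and Ago4), 0 fell and 3 did not pass (Piwil1, Ago2 and Ago3), by the brightest probe of each gene in the limma fit. At an unadjusted p under 0.05 the count that fell was also 0. Against the 40.5% of all genes that rose and the 29% that fell, a count of 4 and 0 among 7 genes is close to the background. With arrays centred on spike-in probes 2 genes rose, Piwil4 and Ago4. The size of the change set 2 genes apart: Ago4 rose 4.14-fold and Piwil4 3.59-fold, a rise exceeded by 2.91% and 3.71% of all genes tested. The order of these 2 genes depends on the setting. As log2 differences, Ago4 gave 1.23 with the mean of its probes and 1.43 with normexp, another background correction, where Piwil4 gave 1.84 and 1.80. A called rise of at least 2-fold was seen in 16.3% of all genes. The median difference of the 7 genes was 0.43. For 5 of the 7 genes the DMSO and 4-hydroxytamoxifen arrays were fully separate, against 86.5% of all genes.

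**Figure D1:**
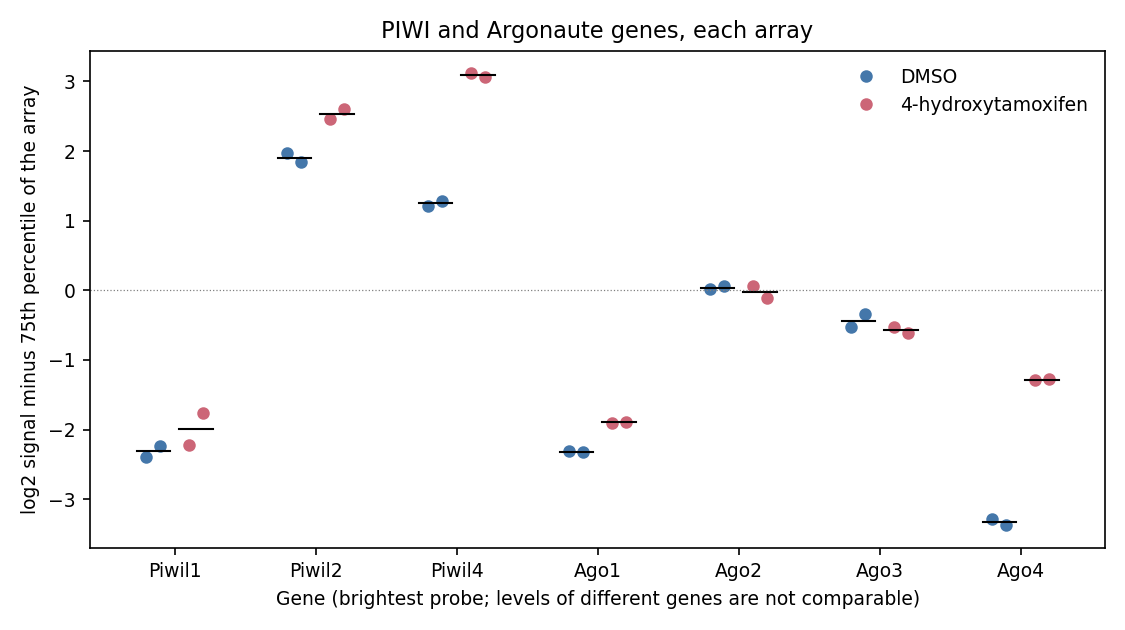
Levels of the 7 genes by array. The vertical axis gives the log2 processed signal minus the array's 75th percentile for the brightest probe of each gene, each point is 1 of 4 arrays, 2 with DMSO and 2 with 4-hydroxytamoxifen, and bars mark group means. Piwil4 and Ago4 show the widest gap between groups (1.84 and 2.05), while the arrays of Ago2 and of Ago3 overlap.

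The RNA is from bulk cultures, so fewer cells of a type and less RNA per cell cannot be told apart. Markers of cells also differed between the groups, in directions that depended on the cell type. Germ cell markers were present in all arrays, Ddx4 at 18720 to 23790, and of 15 tested 1 rose and 11 fell (Ddx4, Mael and Lin28a also stand in the partner lists). Their summed level was 186 and 182.8 with DMSO and 135.8 and 141.3 with 4-hydroxytamoxifen. Markers of embryonic fibroblasts, the feeder cell type, rose in 23 of 24 cases, with sums of 323 and 365.3, then 610.4 and 577.7. Markers of macrophages and blood rose in 6 of 9 cases (sums 16.9 and 18.7, then 37.0 and 37.9). Most of these sums came from Lyz2, which read 10920 and 12520, then 23100 and 23790, and Ptprc, Cd68 and Pecam1 did not pass. Of 9 markers of Sertoli and Leydig cells 5 rose and 3 fell (sums 5.74 and 6.36, then 12.9 and 12.2). Inhbb and Clu made up most of those sums and rose, as did Sox9, Cldn11 and Dhh, while Wt1, Cyp17a1 and Nr5a1 fell. These counts are to be read against all genes, of which 40.5% rose and 29% fell. Amh, Gata4, Hsd3b1, Itgam, Cdh5 and Fap were not well above background on enough arrays to be tested. The part of these cells in the rises of Piwil2, Piwil4, Ago1 and Ago4 was not tested.

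The promoters of Piwil4 and Ago4 are shown because these genes rose most, and they differ in CG content. Sequences are RefSeq's for GRCm38.p6, the 250 bases before the annotated start, 5′ to 3′ on the gene's strand, with CG in capitals. The Piwil4 stretch lies at chr9:14740673-14740922 and the Ago4 stretch at chr4:126533459-126533708, both on the minus strand.
Piwil4: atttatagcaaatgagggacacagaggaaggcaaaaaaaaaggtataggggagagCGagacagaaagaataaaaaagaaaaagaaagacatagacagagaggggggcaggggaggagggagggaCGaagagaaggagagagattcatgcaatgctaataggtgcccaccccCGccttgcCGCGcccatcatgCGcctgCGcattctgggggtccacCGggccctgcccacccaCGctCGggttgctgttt
Ago4: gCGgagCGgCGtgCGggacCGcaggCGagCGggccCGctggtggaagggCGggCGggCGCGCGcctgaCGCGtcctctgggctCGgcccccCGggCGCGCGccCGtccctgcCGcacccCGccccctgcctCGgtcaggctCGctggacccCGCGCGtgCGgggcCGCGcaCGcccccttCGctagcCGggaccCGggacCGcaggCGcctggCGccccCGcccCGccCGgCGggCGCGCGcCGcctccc

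The Ago4 promoter holds 46 CG, a count that 0.2% of 32851 promoters of the same length exceed, and the Piwil4 promoter holds 10, which 35.6% exceed. The median promoter holds 6, and 92.13% hold at least 1. A second annotated Piwil4 start has 0. Of the other promoters matched, Piwil1 has 16 CG, Ago3 has 27, and Ago1 has 26 and 28 at its annotated starts. Ago4, with the most CG of these, rose 4.14-fold, Piwil4, with fewer than Ago3, rose 3.59-fold, and Ago3 did not pass. Whether CG count relates to the change was not tested. The E-box CANNTG, which reads the same on both strands and occurs in 66.22% of promoters, was found 5 times before Piwil1, 1 time before each Piwil4 start and 0 times before Ago1, Ago3 and Ago4. The nuclear receptor motif AGGTCA, searched on both strands and held by 14.02% of promoters, was found 0 times in these windows. These matches describe letters only.

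Piwil4, also known as MIWI2, is the nuclear PIWI protein of foetal prospermatogonia, in which it brings DNA methylation to young transposons. Its tested probe, at chr9:14506314-14506373 of mm9 on the minus strand, starts at base 3152 of the transcript. It read 1644 and 1755 with DMSO and 5860 and 5696 with 4-hydroxytamoxifen. Both treated arrays lay far above both controls, and each pair was tight. The rise was 1.84 ± 0.07 on the log2 scale (95% interval 1.66 to 2.03, limma adjusted p = 0.000426). A second Piwil4 probe, from a clone record and at chr9:14500821-14500880, read 4.14 and 4.60 with DMSO and 8.58 and 5.23 with 4-hydroxytamoxifen. It was not well above background on any array and was not tested, so the rise rests on 1 probe.

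Piwil2, also known as MILI, is a cytoplasmic PIWI protein present from foetal germ cells to round spermatids, and its cutting activity drives piRNA amplification. Its only probe, at chr14:70772497-70772556 and at transcript base 4643, read 2775 and 2581 with DMSO and 3718 and 4136 with 4-hydroxytamoxifen. Both treated arrays were above both controls. Piwil2 rose 1.54-fold (0.63 ± 0.09, 95% interval 0.38 to 0.87, limma adjusted p = 0.00464). A larger rise was seen in 27.7% of all genes. With arrays centred on spike-in probes the difference was 0.47 ± 0.22 and did not pass (limma adjusted p = 0.0518).

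Piwil1, also known as MIWI, is the PIWI protein of pachytene spermatocytes and round spermatids, cell types that come after the stem cell stage. Its probe, at chr5:129260319-129260378 on the plus strand and at transcript base 2913, read 135.7 and 152.3 with DMSO and 145.5 and 199.8 with 4-hydroxytamoxifen. The raw signals of the groups overlapped, and after scaling the treated arrays lay just above the controls. The difference of 0.32 ± 0.18 did not pass (95% interval -0.17 to 0.81, limma adjusted p = 0.174). Without 4-hydroxytamoxifen replicate 1 the difference was 0.55, and without 4-hydroxytamoxifen replicate 2 it was 0.10, so its size depends on which treated array is kept. Of 9 markers of pachytene spermatocytes and spermatids that could be tested, 2 were called higher and 2 lower, against 40.5% and 29% of all genes. Their summed level, relative to the array's 75th percentile, was 14.0 and 12.5 with DMSO and 10.4 and 10.2 with 4-hydroxytamoxifen. Acrv1 and Pgk2, markers of the same cells, were not well above background on enough arrays to be tested.

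Every probe of an Argonaute is accounted for by its place along the transcript, because probes of 1 gene did not agree. Of the 20 probes of the family, 16 were well above background on at least 2 arrays and were tested: 7 rose, 1 fell and 8 did not pass. Among the 7, the Ago4 probe at base 1039, was above background with 4-hydroxytamoxifen only, so that it entered the fit through the group where it is high and had to differ. Of the other 15 probes 6 rose. Among all 26392 probes tested, 67.3% passed: 36.5% rose and 30.8% fell. Of the 4 left out, 2 were not well above background on any array. The 13 tested Argonaute probes gave 5 that rose, 1 that fell and 7 that did not pass. The probe fit has its own standard errors and adjusted p-values, which are the ones given for single Argonaute probes.

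The Ago4 probes nearest the 5′ end of the transcript are shown, because their differences were far smaller than those of the gene's other probes. Each is printed as it stands in the array files, 5′ to 3′ in the sense of the mRNA. They lie at chr4:126193135-126193194 (base 1039) and chr4:126185617-126185676 (base 1894) of mm9, on the minus strand.
Ago4 base 1039: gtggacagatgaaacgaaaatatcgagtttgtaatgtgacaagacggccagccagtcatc
Ago4 base 1894: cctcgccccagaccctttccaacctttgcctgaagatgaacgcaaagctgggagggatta

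Ago4 is an Argonaute without cutting activity that is abundant in the testis, where it is known from meiotic germ cells. Its probe nearest the 3′ end, at transcript base 6355 (chr4:126166896-126166955, minus strand), read 72.7 and 69.3 with DMSO and 276.3 and 280.9 with 4-hydroxytamoxifen. The groups were far apart and each pair was tight. The rise there was 2.05 ± 0.07 (95% interval in the gene fit 1.87 to 2.23, limma adjusted p = 0.000542 in the probe fit).

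Moving toward the 5′ end, the Ago4 probe at base 6086 read 56.7 and 58.9 with DMSO and 228.8 and 210.5 with 4-hydroxytamoxifen, a rise of 2.001 ± 0.08 (limma adjusted p = 0.000559). The probe at base 3526 read 38.8 and 32.6, then 90.4 and 87.8, a rise of 1.40 ± 0.11 (limma adjusted p = 0.00132). Both probes separated the groups without overlap. The probe at base 1894, printed above, read 26.8 and 24.2 with DMSO and 22.4 and 28.6 with 4-hydroxytamoxifen. Its groups overlapped, and the difference of 0.07 ± 0.15 did not pass (95% interval -0.33 to 0.47, limma adjusted p = 0.7), an interval that lies wholly below the rise at base 6355. That interval covers the spread of the arrays only. The signal was close to background, where a change in RNA may show less. The probe nearest the 5′ end, at base 1039, read 16.7 and 17.8 with DMSO and 25.5 and 24.3 with 4-hydroxytamoxifen. It was not well above background on either DMSO array, so only a bound can be given. With the scaling and background used throughout, it was at least 1.5-fold higher (0.61 as fitted). That bound does not carry over to other settings. The fitted difference was smaller with normexp background correction (0.223) and with scaling by quantiles (0.355), medians (0.429) or spike-in probes (0.46). With spike-in scaling the probe did not pass (limma adjusted p = 0.0725). This probe entered the fit through the treated arrays alone, so its call adds no support. A bound of this kind sets the treated mean against the higher of the probe's own signal and the lowest signal well above background on each control array. With the mean of all Ago4 probes in place of the brightest, the gene's difference was 1.23 and still passed (limma adjusted p = 0.000728). With normexp background correction, which adds an offset of 50 to each signal, the rise at base 3526 was 0.67 and still passed (limma adjusted p = 6.21e-05).

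**Figure D2:**
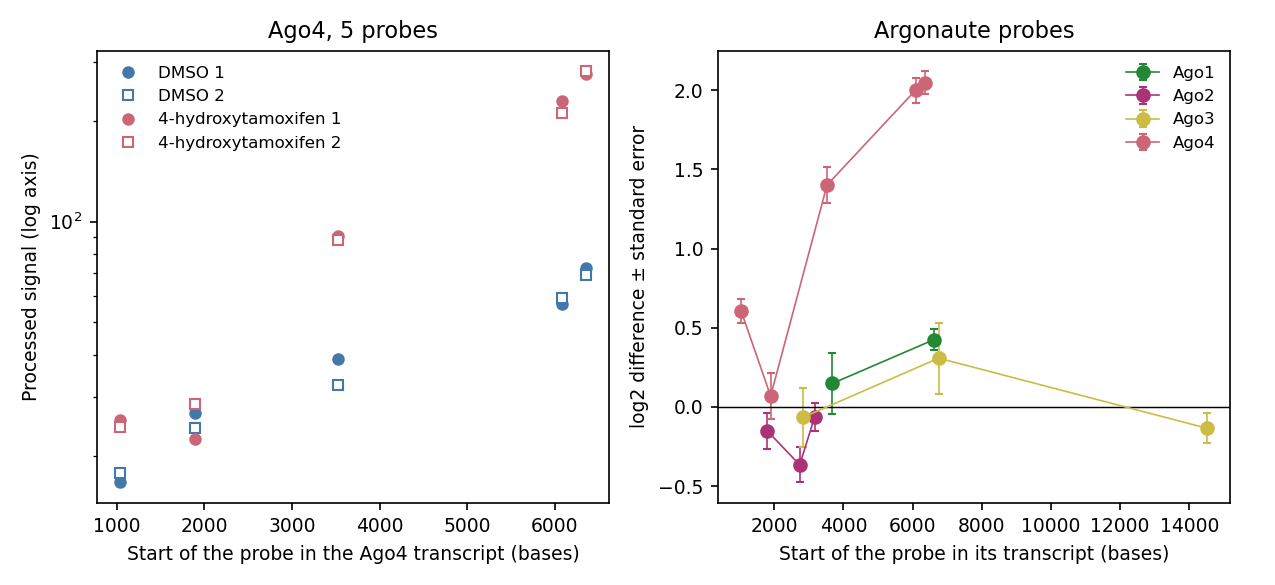
Argonaute probes by their place along the transcript. The left panel plots the processed signal (log axis) of the 5 Ago4 probes on each of the 4 arrays against the probe's start in the transcript in bases, and the right panel the log2 difference, 4-hydroxytamoxifen minus DMSO, of every tested Argonaute probe with its limma standard error, with lines joining probes of 1 gene. For Ago4 the differences go from 0.61 and 0.07 at bases 1039 and 1894 to 2.05 at base 6355.

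The gap along the Ago4 transcript was set beside that of other genes as the 3′-most minus the 5′-most probe within each array, over all 3376 accessions with a pair at least 500 bases apart and well above background on all 4 arrays. This measure was chosen after the Ago4 values were seen, so it is given as a description. For Ago4, from base 1894 to base 6355, the log2 ratio of the probes was 1.44 and 1.52 with DMSO and 3.62 and 3.30 with 4-hydroxytamoxifen. The ratio itself depends on the probes, and only its change between groups is read. The treated arrays exceeded the controls without overlap, by 1.98 ± 0.14.

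Probes near the 3′ end moved up relative to 5′ probes in many genes: 50.9% of pairs passed in limma, 43.3% as higher at the 3′ end and 7.67% as lower, with a median of 0.29. Among the 1950 pairs whose signals were all above 100, these were 43.1%, 7.59% and 0.28. The Ago4 change was larger than this median, and 0.889% of pairs had a larger one. The 5′ probe of the Ago4 pair read 22.4 to 28.6, near the dimmest spots well above background (15.01 to 19.54). Ago4 is thus not among the pairs with signals above 100. How far the low signal narrows the change at that probe, and so widens the gap, was not tested. With normexp background correction the Ago4 gap was 1.37. Ago1 changed by 0.28 ± 0.17 and Ago2 by 0.09 ± 0.12, both below the median of all pairs. The part of this shift in the differences of single members was not tested.

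Ago1, which carries miRNAs as the other Argonautes do, had its brightest probe at base 6617 (chr4, start 126112644). The signals were 143 and 143.7 with DMSO and 181.3 and 183.9 with 4-hydroxytamoxifen. Both treated arrays were above both controls. The gene rose 1.34-fold (0.43 ± 0.06, 95% interval 0.26 to 0.59, limma adjusted p = 0.00443). At base 3676 the signals were 118 and 92.7, then 124.9 and 96.7, so the groups overlapped and the difference of 0.15 ± 0.19 did not pass (limma adjusted p = 0.529). The probe at base 2046 read 22.9 and 12.9, then 15.7 and 16.0, and was well above background on 1 array only. The call for Ago1 was lost with arrays centred on spike-in probes (0.27, limma adjusted p = 0.287) and with the mean of its probes (0.29, limma adjusted p = 0.0787). With arrays centred on their medians the rise was 0.25 and passed (limma adjusted p = 0.0257).

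Ago2 is the mammalian Argonaute that cuts its targets and the one needed for early development. Its brightest probe, at base 3163 (chr15, start 72936863), read 717.7 and 751 with DMSO and 703 and 629.5 with 4-hydroxytamoxifen. After scaling the groups overlapped, and the difference of -0.07 ± 0.08 did not pass (95% interval -0.30 to 0.17, limma adjusted p = 0.52).

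At base 2735 the Ago2 signals were 247.8 and 275.7, then 207.1 and 178.7. Both treated arrays were below both controls, and this was the 1 member probe that fell (-0.37 ± 0.11, limma adjusted p = 0.0424). The call did not hold without DMSO replicate 1 (-0.44, limma adjusted p = 0.0609), without DMSO replicate 2 (-0.30, limma adjusted p = 0.139), without 4-hydroxytamoxifen replicate 2 (-0.26, limma adjusted p = 0.143) or without a filter on dim probes (limma adjusted p = 0.113). The probe at base 1801 read 72.5 and 66.6, then 64.2 and 54.7 (-0.15 ± 0.12, limma adjusted p = 0.296), and did not pass.

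A further probe carries the name of a RIKEN cDNA clone, which RefSeq lists as a former name of Ago2. It lies at chr15:72929135-72929194 of mm9, 7668 bases past the nearest Ago2 probe, and is outside the rule by which members were chosen. It read 1597 and 1829 with DMSO and 3222 and 3151 with 4-hydroxytamoxifen, both treated arrays above both controls. It rose 1.97-fold (0.98 ± 0.09, limma adjusted p = 0.0017), where none of the 3 Ago2 probes rose. Counted as an Ago2 probe, a choice made after the data were seen, it would be the brightest and turn the Ago2 result from -0.07 to 0.98 (limma adjusted p = 0.00146). Whether it reads a longer Ago2 transcript or another RNA was not tested.

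Ago3, another Argonaute that carries miRNAs, lies next to Ago1 in the mouse genome and had 5 probes. The brightest, at base 14514 (chr4:126010997-126011056), read 493 and 566.3 with DMSO and 469.4 and 443.9 with 4-hydroxytamoxifen. After scaling the groups overlapped, and the difference of -0.14 ± 0.09 did not pass (95% interval -0.39 to 0.12, limma adjusted p = 0.257). With arrays centred on their medians it was -0.31 and passed (limma adjusted p = 0.0314).

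The other Ago3 probes were close to background. The probe at base 2829 read 18.7 and 26.8, then 20.1 and 20.4, and the probe at base 6752 read 21.1 and 30.8, then 26.6 and 33.7. Neither passed, with differences of -0.07 ± 0.19 (limma adjusted p = 0.772) and 0.31 ± 0.23 (limma adjusted p = 0.284). The probes at bases 12623 and 13546 read 4.39 to 14.98 and 15.5 to 39.3, were well above background on 0 and 1 arrays, and were not tested.

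**Figure D3:**
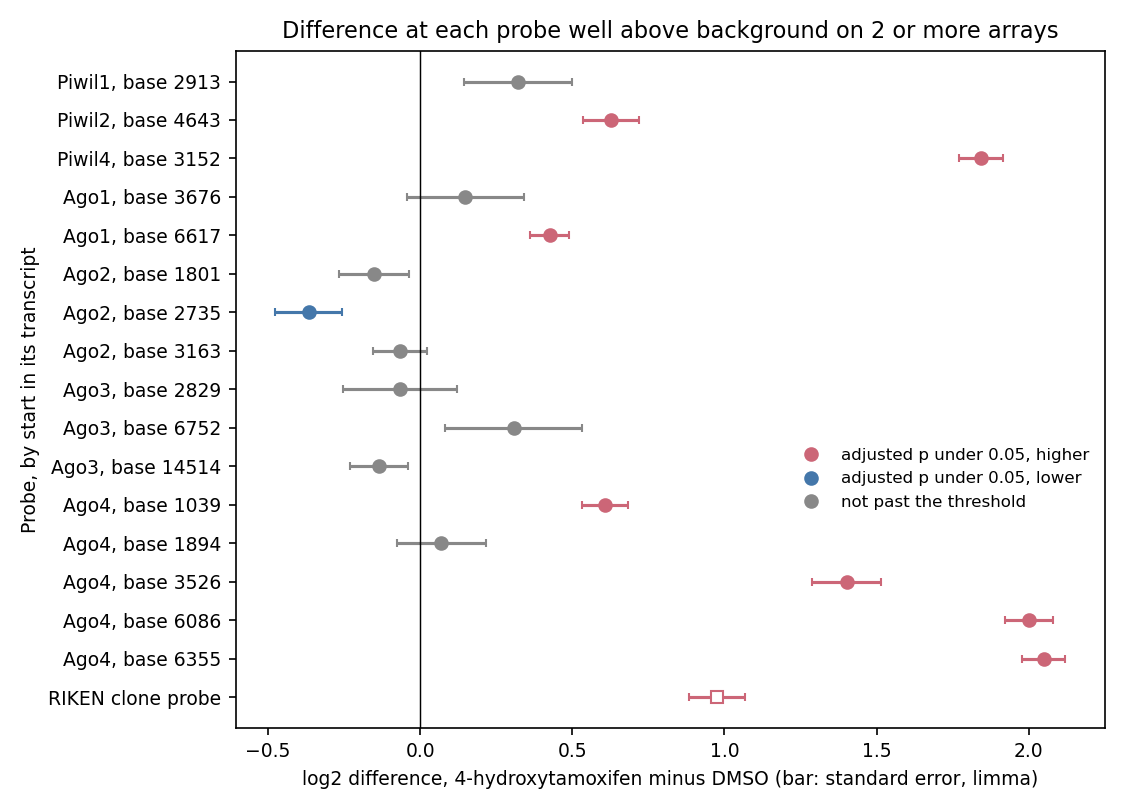
Log2 difference of every tested probe of the family. Points give 4-hydroxytamoxifen minus DMSO with the limma standard error, listed by gene and transcript base and coloured by call, and the open square is the RIKEN clone probe, which is not counted. Of 16 probes 7 rose (the Ago4 probe at base 1039 entered through the treated arrays alone) and 1, of Ago2, fell, and within Ago4 the differences range from 0.07 to 2.05.

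Partners of the PIWI proteins were taken from a list of 30 genes, 27 of which could be tested. Of these 13 rose, 9 fell and 5 did not pass, against 40.5% and 29% of all genes, with a median difference of 0.23 against 0.12. The list includes Nanos2, the induced gene. With arrays centred on spike-in probes 8 rose.

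The largest rise was that of Dnmt3l, the cofactor of DNA methyltransferases that acts with nuclear piRNA silencing. It read 464.1 and 485.2 with DMSO and 7156 and 7923 with 4-hydroxytamoxifen, a 16.7-fold rise (4.06 ± 0.08, limma adjusted p = 0.000366). Tdrd9, a helicase found with Piwil4, read 839.4 and 778.8, then 3137 and 3308 (2.07 ± 0.08, limma adjusted p = 0.000442). For both genes the groups lay far apart. Tex15, a nuclear protein that acts with Piwil4 in transposon silencing, read 1826 and 1841, then 3632 and 3783 (1.09 ± 0.06, limma adjusted p = 0.000697), so it too separated the groups.

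Among the partners that fell, Wdr77, the partner of the arginine methyltransferase Prmt5, read 3658 and 3632 with DMSO and 1040 and 1081 with 4-hydroxytamoxifen (-1.71 ± 0.06, limma adjusted p = 0.000426). Pld6, the mitochondrial nuclease that starts piRNAs, read 2023 and 2027, then 825.2 and 834.1 (-1.21 ± 0.06, limma adjusted p = 0.000569). Tdrkh, the mitochondrial Tudor protein that holds PIWI proteins for trimming, read 6544 and 6501, then 3424 and 3560 (-0.83 ± 0.06, limma adjusted p = 0.00106). For Wdr77, Pld6 and Tdrkh both treated arrays were below both controls. Tdrd6, a Tudor protein of the chromatoid body, read 21.3 and 37.4, then 13.1 and 13.3, and was not well above background with 4-hydroxytamoxifen, so that it was at least 1.56-fold lower. Tdrd6 entered the fit through the DMSO arrays alone and had to differ, and without it 8 of 26 partners fell. Mael and Ddx4, which germ cells make throughout, did not pass at 0.13 ± 0.09 and -0.17 ± 0.08.

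**Figure D4:**
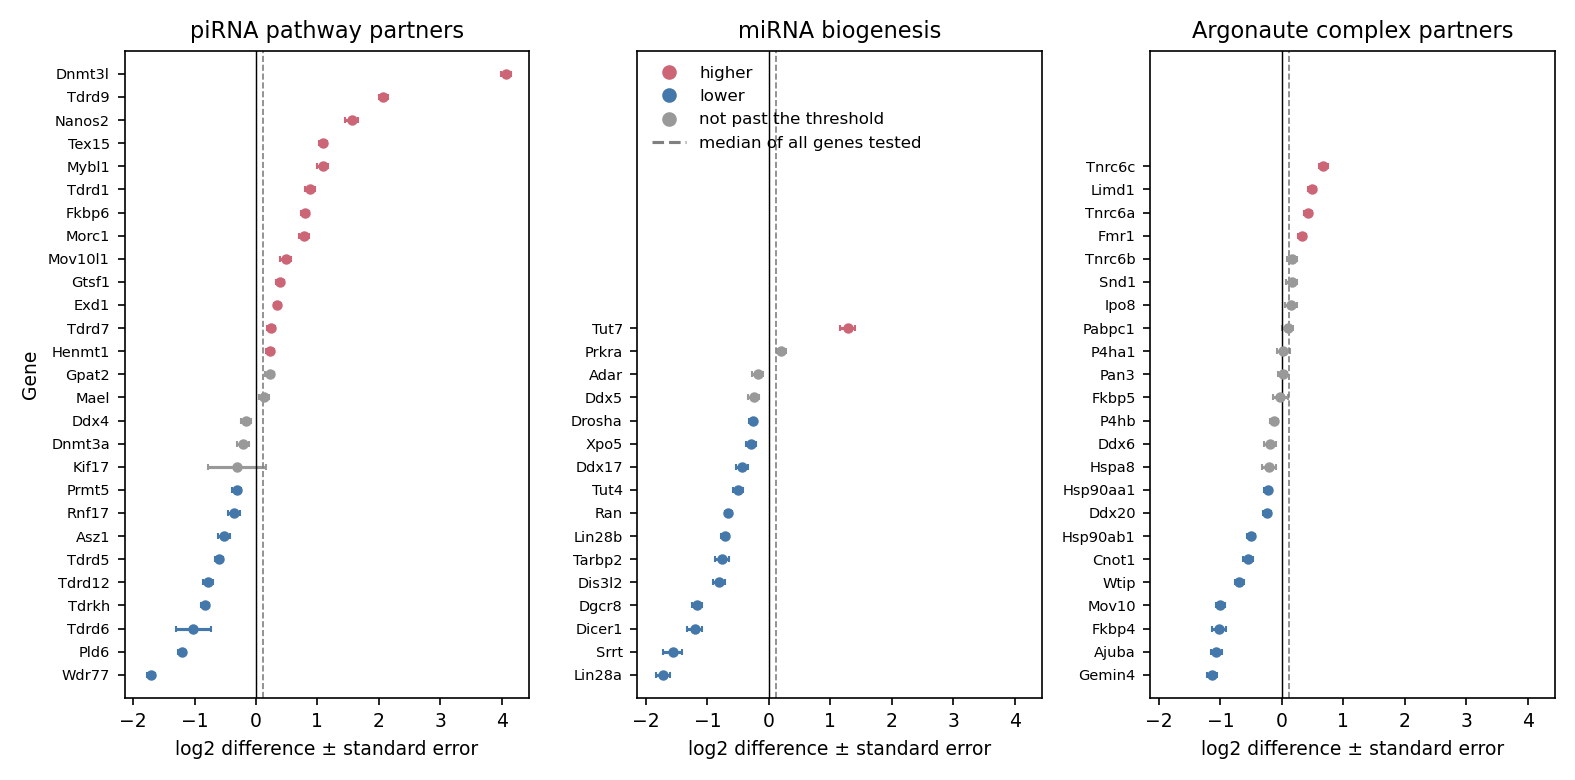
Log2 differences of the genes of the partner lists. Each point is a gene, 4-hydroxytamoxifen minus DMSO with the limma standard error, coloured by call, and the dashed line is the median of all genes tested (0.12), with 1 panel each for piRNA pathway partners, miRNA biogenesis and Argonaute complex partners. Of 27 piRNA partners 13 rose and 9 fell, while of 16 miRNA biogenesis genes 1 rose and 12 fell.

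Of 16 tested genes of the miRNA biogenesis list, 1 rose, 12 fell and 3 did not pass, with a median of -0.58. That compares with 29% lower and a median of 0.12 among all genes. The list also holds genes that hold miRNAs back, such as Lin28a, so its count is not one of miRNA makers alone. Dicer1, which cuts precursors into miRNAs, read 2153 and 1907 with DMSO and 895.6 and 772.2 with 4-hydroxytamoxifen (-1.21 ± 0.12, limma adjusted p = 0.00172). Dgcr8, which holds primary transcripts for the nuclease Drosha, read 175.3 and 167, then 68.9 and 75.3 (-1.17 ± 0.08, limma adjusted p = 0.000878). In both genes the treated arrays fell below the controls without overlap.

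Lin28a, which blocks the maturation of let-7 miRNAs, read 856.2 and 787.3, then 216 and 256.5 (-1.73 ± 0.11, limma adjusted p = 0.000845). Srrt, which joins the nuclear cap-binding complex to miRNA processing, read 977.1 and 958, then 269.7 and 356.9 (-1.57 ± 0.15, limma adjusted p = 0.00173). Both genes separated the groups without overlap. The 1 gene that rose was Tut7, a uridylyl transferase, at 299.2 and 346.2, then 801.1 and 688.7 (1.28 ± 0.12, limma adjusted p = 0.00158), though its 3 probes ranged from -0.24 to 1.54 and 2 of them rose.

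Of 23 tested genes listed as partners of Argonaute complexes, 4 rose, 9 fell and 10 did not pass, with a median of -0.13. Among all genes 40.5% rose and 29% fell, with a median of 0.12. With arrays centred on spike-in probes 1 of the 23 rose. Among the scaffold proteins that link Argonautes to mRNA decay, Tnrc6c rose by 0.68 ± 0.07 and Tnrc6a by 0.43 ± 0.06 (limma adjusted p = 0.00198 and 0.00493), and Tnrc6b did not pass at 0.17 ± 0.08. Limd1, a LIM-domain protein, rose by 0.50 ± 0.07 (limma adjusted p = 0.00377). Its relative Ajuba fell by 1.07 ± 0.09 (limma adjusted p = 0.00125). The helicase Mov10 fell by 1.002 ± 0.07, Gemin4 by 1.13 ± 0.08 and the Hsp90 cochaperone Fkbp4 by 1.02 ± 0.12 (limma adjusted p = 0.000979, 0.00101 and 0.00267). Fmr1 rose by 0.33 ± 0.06 by its brightest probe (limma adjusted p = 0.0112), but its other probe fell, at -0.38.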

How the data were processed

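The deposited scanner files hold, per the file headers, linear intensity values from Agilent Feature Extraction 10.7.3.1, while the submitters' processing notes name version 9.5. A deposited value table holds log2 values, which were the log2 processed signals shifted by a constant on each array (column medians 6.16, 6.18, 6.35 and 6.35), and served as an alternative. Control and outlier spots (60 to 71 per array) were left out, spots of a probe averaged, and each array's 75th percentile of log2 processed signal subtracted. Features well above background on at least 2 of 4 arrays entered limma 3.58.1 in R 4.3.3 (lmFit, eBayes, group only), checked on simulated data. The probe with the highest mean stood for a gene. All 4 arrays were on 1 slide and in 1 scan, and 2 arrays per group limit the precision. For probes spotted 10 times, the difference between arrays of a group was 4.56 (DMSO) and 4.54 (4-hydroxytamoxifen) times the noise of the spot means, so each array counted as 1 sample. An exact permutation test of 2 against 2 cannot go below 0.333.

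RefSeq names (GRCm38.p6) matched 33636 of 41174 probes, and 7538 kept the file's name. Probe positions are mm9, as in the files; exons and UTRs were not annotated here. Promoters matched 5 of 7 genes. Named were all members with every probe, Nanos2, up to 4 called genes with the largest difference in each direction per partner list, and the 2 genes nearest to each member in pattern; genes beyond these, the probe pairs and the clone probe were chosen after their values were seen. Members and lists were chosen with earlier results of these data known. Alternatives covered normexp background (offset 50), scaling by quantiles, medians or spike-in probes, the deposited table, the filter, the mean of a gene's probes, a replicate block and leaving out each array.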

Additional observations from a re-analysis of the deposited data

How the results depend on the processing

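Piwil4 (1.66 to 1.88) and Ago4 (1.23 to 2.09) kept their rise and their call under every alternative tried, as did Nanos2 (1.38 to 1.68). With spike-in scaling Piwil2 (0.47) and Ago1 (0.27) no longer passed, nor did the Ago4 probe at base 1039 (0.46), which left 2 member genes and 4 member probes called higher, 8 piRNA partners and 1 Argonaute partner. In that setting the standard error was 0.217 for each member gene and for Nanos2. The spike-in levels, as mean log2 signals, were 9.71 and 9.97 for the DMSO arrays and 9.91 and 9.92 for the treated arrays. Ago1 also missed with the mean of its probes (0.29). With median scaling Ago3 passed as lower (-0.31), giving 1 member gene and 2 member probes called lower. Counting the clone probe turned Ago2 to 0.98. Leaving out single arrays, which leaves 1 array in a group that is assumed to vary like the other group, gave 0.10 to 0.55 for Piwil1 and 0 to 1 member probes called lower. Without a filter 0 member probes were lower. The cause of these changes was not tested. Normexp gave 1.43 for Ago4. Of the marker counts, that of spermatocyte and spermatid markers called higher went from 2 to 0 with spike-in scaling, Sertoli and Leydig markers called lower from 3 to 1 without a filter, without DMSO replicate 1 or without 4-hydroxytamoxifen replicate 1, and macrophage and blood markers called lower from 0 to 1 with quantile, median or spike-in scaling or without 4-hydroxytamoxifen replicate 2. Of 190 single-probe results under alternatives, 180 stayed on their side of the threshold, 8 lost the call and 2 gained it; 11, from 4 probes that did not pass in either setting, changed sign. Signal limits the dimmer Ago3 probes and the 5′ Ago4 probes, which lay near background.

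Deviations of same-numbered arrays correlated at -0.05, so they shared no visible pattern. Whether equal replicate numbers mark arrays handled together cannot be told from this. With the replicate number as a block, 6572 genes were higher and 4526 lower, Piwil2, Piwil4, Ago1 and Ago4 stayed called (limma adjusted p = 0.0136, 0.00185, 0.0205 and 0.00172), and 0 member probes were lower.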

Other observations

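The genes whose values over the 4 arrays lay closest to each member, by Euclidean distance of log2 values centred on each gene's mean, were sought among 13862 genes well above background on all arrays. For Ago4 they were Gpd1, which rose by 2.07 (distance 0.025), and the piRNA helicase Tdrd9, which rose by 2.07 (distance 0.051). For Piwil4 they were Gyg, the primer protein of glycogen synthesis, at 1.84 (distance 0.027) and Gm3625 at 1.87 (distance 0.038). Piwil2 lay closest to Ngb and Fam89b (distances 0.023 and 0.024), Piwil1 to Evc and Sytl1 (0.037 and 0.046) and Ago1 to Rbm18 and G0s2 (0.0070 and 0.0081). Ago2 lay closest to Poc1b and Senp2 (0.011 and 0.017) and Ago3 to Zfp329 and Fgf11 (0.022 and 0.036). With 4 arrays in 2 groups such likeness is mostly that of the group difference. Within a distance of 0.2 there were 63 genes for Ago4, 94 for Piwil4 and 77 for Piwil1, against 855 for Piwil2, 1743 for Ago1, 1487 for Ago2 and 1180 for Ago3.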
